A study of Mus musculus with 8 samples.

Results

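Semaphorins are guidance proteins that steer growing axons and migrating cells, and they share an extracellular sema domain. Ligands of class 3 are secreted and mostly act through a neuropilin that binds the ligand together with a plexin of the A type, which carries the signal into the cell. Ligands of class 4 are anchored in the membrane and act mainly through plexins of the B type. In the mouse cochlea, Sema3f acting through Nrp2 keeps the fibres of type I spiral ganglion neurons away from the outer hair cells. The 10 genes described here, Sema3a, Sema3c, Sema3e and Sema3f of class 3 and Sema4a, Sema4b, Sema4c, Sema4d, Sema4f and Sema4g of class 4, were chosen by symbol from the 21887 protein-coding genes of a RefSeq table of GRCm38.p6, the mouse build that shares its coordinates with mm10. All 10 were found, and their annotated spans run from 12.1 kb (Sema4c) to 478.7 kb (Sema3a).

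The cells were wild-type iMOPs, an immortalized line of multipotent otic progenitors from the mouse. All of them are 1 line. The first group had been turned into neurons in medium with 1 µM K03861, a CDK2 inhibitor, and the other was proliferating with 20 ng/ml bFGF. CUT&Tag, which uses antibody-bound protein A-Tn5 to insert sequencing adapters beside a chromatin protein, was run for CHD4 (the ATPase of the NuRD remodelling and deacetylase complex), for H3K4me3 (a histone methylation typical of active promoters) and for p300 (an acetyltransferase of enhancers and promoters), with 1 sample per antibody and state and 500000 cells stated per library. The peak lists held 4599 CHD4, 5625 H3K4me3 and 965 p300 peaks in neurons and 4919, 7472 and 3144 in proliferating iMOPs. IgG controls (2 libraries) were not analysed here. Read depth is unknown. The peak lists are named as merged, and pooling of more than 1 library in a list is therefore possible and could not be checked. Since each state has 1 list per antibody, differences between neurons and proliferating iMOPs have no replicate check and no test is given. A peak absent from a list shows only that no region passed the authors' calling there. As a check of the labels, H3K4me3, which over all protein-coding genes lay at a gene end of 30.0% in neurons and 37.6% in proliferating iMOPs, was found at a gene end of 3 of 12 neuron markers in neurons (Tubb3, Map2 and Elavl3) and of 2 in proliferating iMOPs, while the markers Dcx and Neurod1 had none in either state. Neither count is above the share over all genes. Of 8 otic progenitor markers, 1 (Sox2) carried it in neurons and 4 in proliferating iMOPs. Of 6 proliferation markers, 5 carried it in each state, Mki67 and Top2a among them. Of 6 genes each, hair cell markers had 1 in each state, glial and mesenchymal markers 2 each in each state, and blood and endothelial markers 0 in neurons and 1 in proliferating iMOPs.

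Most CHD4 peaks near these genes fell inside the genes or in the 50 kb on either side, and fewer within 1 kb of a gene end. The first stretch is much longer than the second, so these counts show no preference for either. At Sema4b and Sema4c, CHD4 lay over RefSeq transcript starts in both states. At Sema3f a CHD4 peak covered a gene end in neurons, and at Sema4a one covered the 3' end of the gene in proliferating iMOPs. Sema3c and Sema4f had no peak of any list within their span and 50 kb either side, as did 35.0% of all protein-coding genes.

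The 250 bases before 6 starts are given here because the CHD4, H3K4me3 and p300 peaks of the next paragraphs lie over some of them and not over others. They are RefSeq sequences on build GRCm38.p6, printed 5′ to 3′ on the strand of the gene. In the first pair the capitals mark the 50-base position of highest signal of a peak: of CHD4 in proliferating iMOPs upstream of the outer Sema4b start (chr7:80186620-80186869, plus strand, capitals at 80186651 to 80186700), and of H3K4me3 in both states upstream of the inner Sema4c start (chr1:36557558-36557807, minus strand, capitals at 36557751 to 36557800).
Sema4b, outer start: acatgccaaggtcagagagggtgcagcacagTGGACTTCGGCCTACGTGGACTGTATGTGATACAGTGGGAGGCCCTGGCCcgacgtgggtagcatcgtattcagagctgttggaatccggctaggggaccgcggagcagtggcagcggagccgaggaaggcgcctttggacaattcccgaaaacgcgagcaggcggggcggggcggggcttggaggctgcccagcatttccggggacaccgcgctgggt
Sema4c, inner start: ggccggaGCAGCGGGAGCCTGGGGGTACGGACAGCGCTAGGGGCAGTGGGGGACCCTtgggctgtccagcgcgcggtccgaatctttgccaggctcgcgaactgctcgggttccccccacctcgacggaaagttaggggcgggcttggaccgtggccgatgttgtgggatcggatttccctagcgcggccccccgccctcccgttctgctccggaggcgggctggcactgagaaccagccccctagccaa
In the others the capitals mark each match to the GC box GGGCGG, a site bound by Sp and Klf factors, on either strand. They come from the inner start of Sema4b (chr7:80198338-80198587, plus strand), the outer start of Sema4c (chr1:36558382-36558631, minus strand), the outermost of the 4 Sema4a starts (chr3:88461183-88461432, minus strand), which had no peak, and the Sema4f start (chr6:82939770-82940019, minus strand), a gene with no peak at all that was added after its values were seen.
Sema4b, inner start: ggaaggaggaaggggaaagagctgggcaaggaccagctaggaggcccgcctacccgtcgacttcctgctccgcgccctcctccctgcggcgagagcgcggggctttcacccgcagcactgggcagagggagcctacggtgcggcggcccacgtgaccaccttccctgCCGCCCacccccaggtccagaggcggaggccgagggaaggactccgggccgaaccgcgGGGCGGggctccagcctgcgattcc
Sema4c, outer start: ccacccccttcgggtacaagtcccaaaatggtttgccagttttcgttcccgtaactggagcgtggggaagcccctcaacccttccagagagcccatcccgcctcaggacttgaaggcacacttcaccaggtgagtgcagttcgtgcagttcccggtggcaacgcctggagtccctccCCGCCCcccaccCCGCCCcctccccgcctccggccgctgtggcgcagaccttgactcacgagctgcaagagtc
Sema4a, outermost start: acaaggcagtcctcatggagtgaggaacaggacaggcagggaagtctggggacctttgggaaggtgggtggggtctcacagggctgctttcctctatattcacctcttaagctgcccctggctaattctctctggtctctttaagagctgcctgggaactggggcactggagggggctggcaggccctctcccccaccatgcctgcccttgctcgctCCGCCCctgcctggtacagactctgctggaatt
Sema4f, start: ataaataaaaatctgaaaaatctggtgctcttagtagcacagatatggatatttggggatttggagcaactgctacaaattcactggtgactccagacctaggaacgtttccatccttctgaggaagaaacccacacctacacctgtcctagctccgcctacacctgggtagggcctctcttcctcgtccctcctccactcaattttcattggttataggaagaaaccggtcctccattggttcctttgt

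Taking 1 kb either side of the annotated ends, CHD4 was found at 2 of the 10 genes in neurons (Sema3f and Sema4b) and at 3 in proliferating iMOPs (Sema4a, Sema4b and Sema4c), where the shares over all protein-coding genes were 9.95% and 11.8%. Only Sema4b had it in both states, a class that held 7.49% of all genes. Sema3f was the only gene of the 10 with CHD4 at an end in neurons only (2.45% of all genes), and Sema4a and Sema4c had it in proliferating iMOPs only (4.27%). H3K4me3 lay at an end of 1 gene in neurons (Sema4c, against 30.0% of all genes) and of 4 in proliferating iMOPs (Sema3f, Sema4b, Sema4c and Sema4d, against 37.6%). For p300 the counts were 0 in neurons (1.24% of all genes) and 1 in proliferating iMOPs (Sema4b, 8.44%). By state, H3K4me3 lay at an end in both states at Sema4c (29.4% of all genes), in proliferating iMOPs only at Sema3f, Sema4b and Sema4d (8.21%) and in neurons only at none (0.612%). The p300 peak at Sema4b was in proliferating iMOPs only (7.54%), and no member had p300 at an end in both states (0.896%) or in neurons only (0.343%). With 10 genes these counts describe the members and set none of them apart from other genes.

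Annotated ends and transcript starts do not coincide at all of these genes, and counting at the starts changes which genes are named. RefSeq starts with their strand were at hand for 9 of the 10 members, all but Sema3f. Within 1 kb of a start, CHD4 was listed at Sema4b and Sema4c in neurons and at the same 2 genes in proliferating iMOPs, against 8.42% and 10.6% of the 17492 genes with a listed start. H3K4me3 was listed at a start of the same 2 genes in each state (30.3% and 38.3% of genes), and p300 at none in neurons (0.880%) and at both in proliferating iMOPs (7.36%). The CHD4 peaks that lay at an end of Sema4a and Sema4c in proliferating iMOPs only were both at the 3' end. For Sema4a that left CHD4 at the 3' end and at no start, which held for 0 members in neurons and for Sema4a in proliferating iMOPs, against 2.26% and 2.01% of 14059 genes longer than 4 kb with a listed start.

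**Figure D1:**
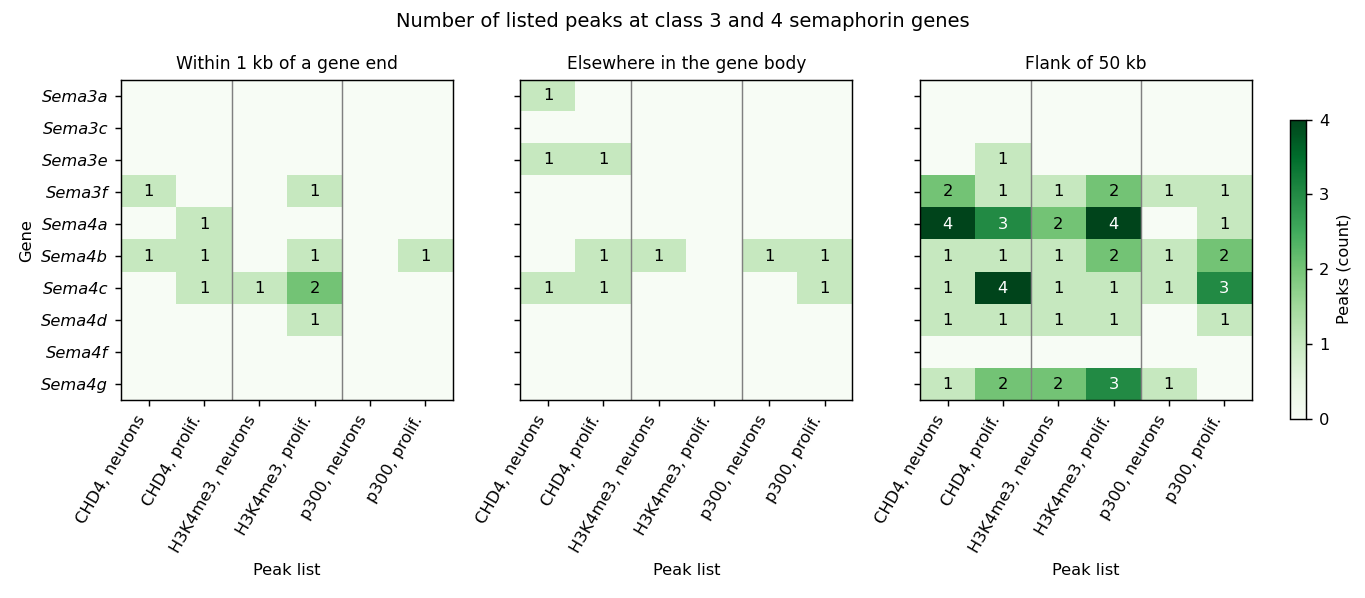
Number of listed peaks at each of the 10 genes, within 1 kb of an annotated gene end (left), elsewhere in the gene body (middle) and in the 50-kb flanks (right). Columns are the 6 peak lists with neurons left of proliferating iMOPs (prolif.) for each antibody, and empty cells are 0. Sema3c and Sema4f are empty throughout, and the 4 CHD4 peaks in the Sema4a flanks in neurons and the 4 in the Sema4c flanks in proliferating iMOPs are the highest CHD4 counts.

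Sema4b encodes a transmembrane semaphorin and had the CHD4 peak of highest rank at a gene end among the 10 genes. Its span is chromosome 7, 80186870 to 80226646, and RefSeq gives an outer start at 80186870 and an inner one at 80198588. In neurons a CHD4 peak of 10700 bp (80185951 to 80196650) covered the outer start and stood at the 95.3rd percentile of its list by total signal. In proliferating iMOPs the same stretch held separate peaks of 1950 bp (80185951 to 80187900, 53.0th percentile) over the outer start and 10850 bp (80190201 to 80201050, 96.3rd percentile) over the inner start. The neuron peak ended before the inner start and came no nearer than 1 kb to it. Its highest signal lay 5.86 kb downstream of the outer start, so its rank is not that of the outer start alone. H3K4me3 and p300 differed at the outer start. The H3K4me3 peak spanned 9850 bp in neurons (80191151 to 80201000), which left out the outer start, and 14900 bp in proliferating iMOPs (80185951 to 80200850), which covered both starts. At the outer start p300 had no peak in neurons and one of 1750 bp in proliferating iMOPs (80186001 to 80187750, 47.3rd percentile). The outer start was thus listed with CHD4 and neither other mark in neurons, and with CHD4, H3K4me3 and p300 in proliferating iMOPs. The p300 part depends on list length: this p300 peak dropped out when the 2 p300 lists were cut to equal size by total signal. At the inner start H3K4me3 was listed in both states, with its highest signal at the same 50-bp position, centred 37 bp downstream of that start.

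Between the Sema4b starts, 5.86 kb downstream of the outer one, CHD4 and p300 had their highest signal at the same 50-bp position in both states (80192701 to 80192750). The p300 peak there was 4600 bp wide in each state, at the 72.0th percentile in neurons and the 93.2nd in proliferating iMOPs. A further site lay 26.2 kb upstream of the outer start. There CHD4 and p300 also shared their 50-bp position of highest signal in both states (80160651 to 80160700), and no H3K4me3 peak overlapped. The CHD4 peak at this site was 4200 bp wide in neurons (64.7th percentile) and 2550 bp wide in proliferating iMOPs (79.9th percentile), and that of p300 stood at the 3.83rd and the 68.4th percentile. Percentiles place a peak within its own list, and since the lists differ in length they give no change between states.

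Sema4c, a ligand of Plxnb2, carried CHD4 and H3K4me3 over its starts in both states. Its span is chromosome 1, 36548639 to 36560699, with RefSeq starts at 36558381 and 36557557 on the minus strand. The CHD4 peak measured 8200 bp in neurons (36551151 to 36559350, 60.6th percentile) and 4400 bp in proliferating iMOPs (36554851 to 36559250, 69.5th percentile). Its highest signal fell at the same 50-bp position in both states, centred 82 bp downstream of the inner start. That of H3K4me3 was centred 218 bp upstream of this start in both states, within the stretch printed above. The H3K4me3 peak stood at the 91.4th percentile in neurons and the 97.8th in proliferating iMOPs. A p300 peak of 4300 bp (36554851 to 36559150, 66.8th percentile) was listed over the starts in proliferating iMOPs, with the same position of highest signal as H3K4me3. No p300 peak was listed there in neurons, whose p300 list held 965 peaks against 3144 in proliferating iMOPs. The part of list length in this difference was not tested. By annotated ends these CHD4 peaks count as gene body, since they stop 1349 bp in neurons and 1449 bp in proliferating iMOPs short of the upper end of the span. The neuron H3K4me3 peak, which stops 999 bp short of it, is just inside the limit of 1 kb.

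At the 3' end of Sema4c, CHD4 (36545501 to 36551250, 40.8th percentile) and H3K4me3 (36545501 to 36550450, 11.0th percentile) were listed in proliferating iMOPs. Both peaks also covered a start of the neighbouring gene Ankrd39, so the signal of the 2 genes cannot be told apart. This CHD4 peak shares 100 bp with the neuron peak over the Sema4c starts and is otherwise free of neuron CHD4. Upstream, 22.1 kb from the nearest start and inside the neighbouring gene Fam178b, a CHD4 peak was listed in both states with the same 50-bp position of highest signal (36580501 to 36580550). It was 9200 bp wide in neurons and 2700 bp wide in proliferating iMOPs, at the 73.7th and 84.6th percentiles. A p300 peak overlapped it in both states, at the 68.5th percentile in neurons and the 91.7th in proliferating iMOPs, and H3K4me3 did not. The flank also held CHD4 in proliferating iMOPs only at Cnnm3 (24.3rd percentile) and Ankrd23 (4.37th percentile), which lie beyond the 3' end, and once more inside Fam178b (1.27th percentile).

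**Figure D2:**
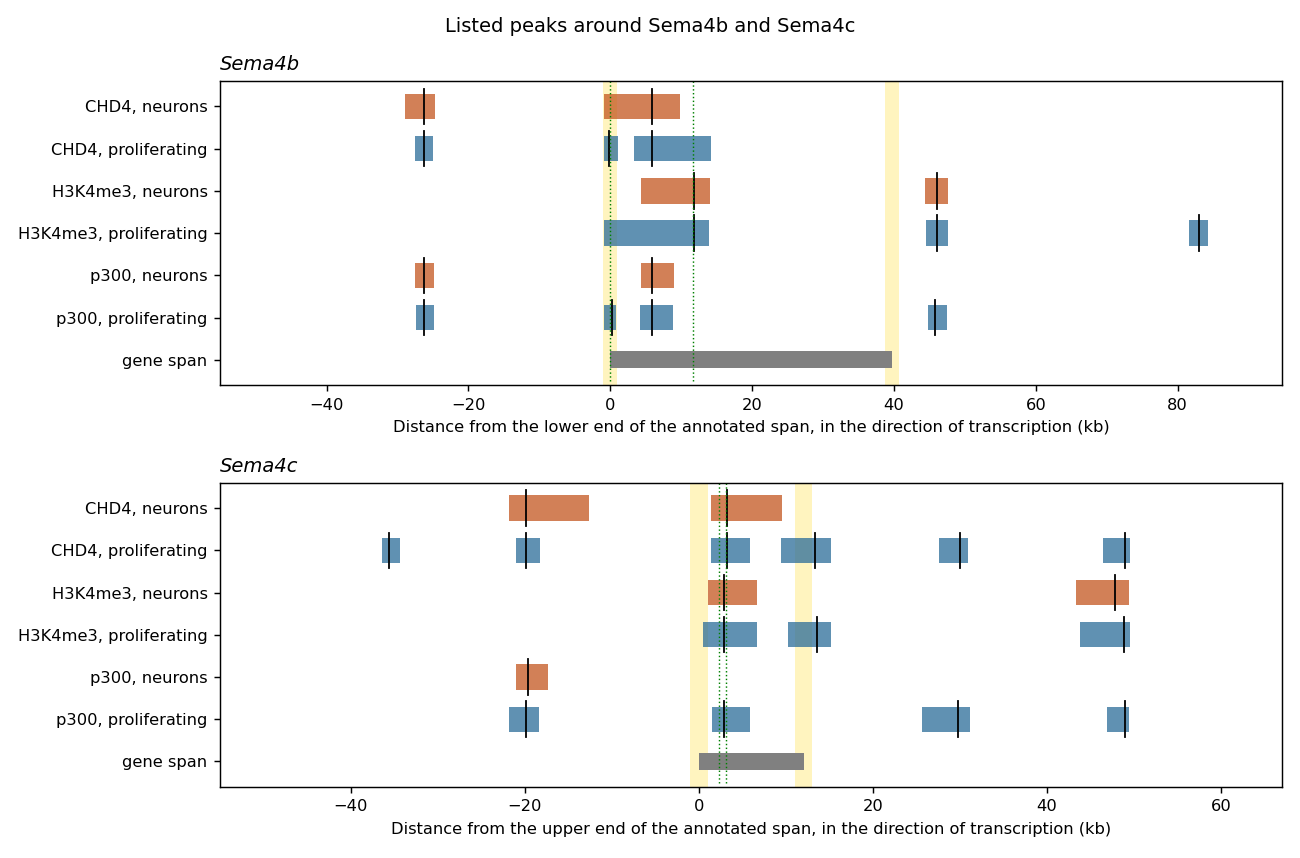
Peaks of the 6 lists around Sema4b (top) and Sema4c (bottom), with distance in kb from the 5' end of the annotated span along the direction of transcription. Bars are listed peaks (neurons in orange above proliferating iMOPs in blue for each antibody), black ticks their position of highest signal, dotted green lines RefSeq starts and yellow bands 1 kb either side of the gene ends. CHD4 and p300 ticks line up 5.86 kb inside Sema4b and 26.2 kb upstream of it in both states, and no H3K4me3 bar is drawn at the upstream site.

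Sema3f, the secreted ligand that binds Nrp2, had different marks listed at its upper end in each state. Its span is chromosome 9, 107681499 to 107710475. In neurons a CHD4 peak of 13250 bp (107699551 to 107712800) covered this end, at the 69.7th percentile by total signal and the 5.09th by signal per base. Its highest signal fell inside the gene (107702801 to 107702850). No CHD4 peak was listed there in proliferating iMOPs. H3K4me3 was listed in proliferating iMOPs, as a peak of 3750 bp (107707351 to 107711100, 11.9th percentile) that lies wholly within the extent of the neuron CHD4 peak, and not in neurons. The H3K4me3 part depends on list length: this peak dropped out when the H3K4me3 lists were cut to equal size by total signal. No p300 peak was listed at this end in either state. A further CHD4 peak of 3400 bp, 23.5 kb above the gene, was listed in neurons only (107734001 to 107737400, 41.7th percentile). On the other side, peaks of all 3 antibodies covered an end of Gnai2, a G protein subunit gene, in both states. The CHD4 peak there was 13600 bp wide and 43.5 kb below Sema3f in neurons (94.0th percentile), and 12950 bp wide and 43.1 kb below it in proliferating iMOPs (97.9th percentile).

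Sema4a, which encodes a transmembrane semaphorin also known from immune cells and the retina, had no peak of any list within 1 kb of any of its 4 RefSeq starts. Its span is chromosome 3, 88435959 to 88461182, on the minus strand. The CHD4 peak at its 3' end was 2700 bp wide (88435551 to 88438250, 20.7th percentile), was listed in proliferating iMOPs only and overlapped neither H3K4me3 nor p300. The flanks held 4 CHD4 peaks in neurons and 3 in proliferating iMOPs, of which 3 in each state overlapped those of the other. Most of them lay at ends of the neighbours Slc25a44, Pmf1 and Lmna, the lamin A gene. The remaining site was inside Lmna and within 1 kb of one of its RefSeq starts, 31.5 kb upstream of Sema4a in neurons and 31.7 kb in proliferating iMOPs. At this site CHD4 was listed without H3K4me3 or p300 in neurons (5100 bp, 27.8th percentile) and with both in proliferating iMOPs (3150 bp, 60.4th percentile).

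**Figure D3:**
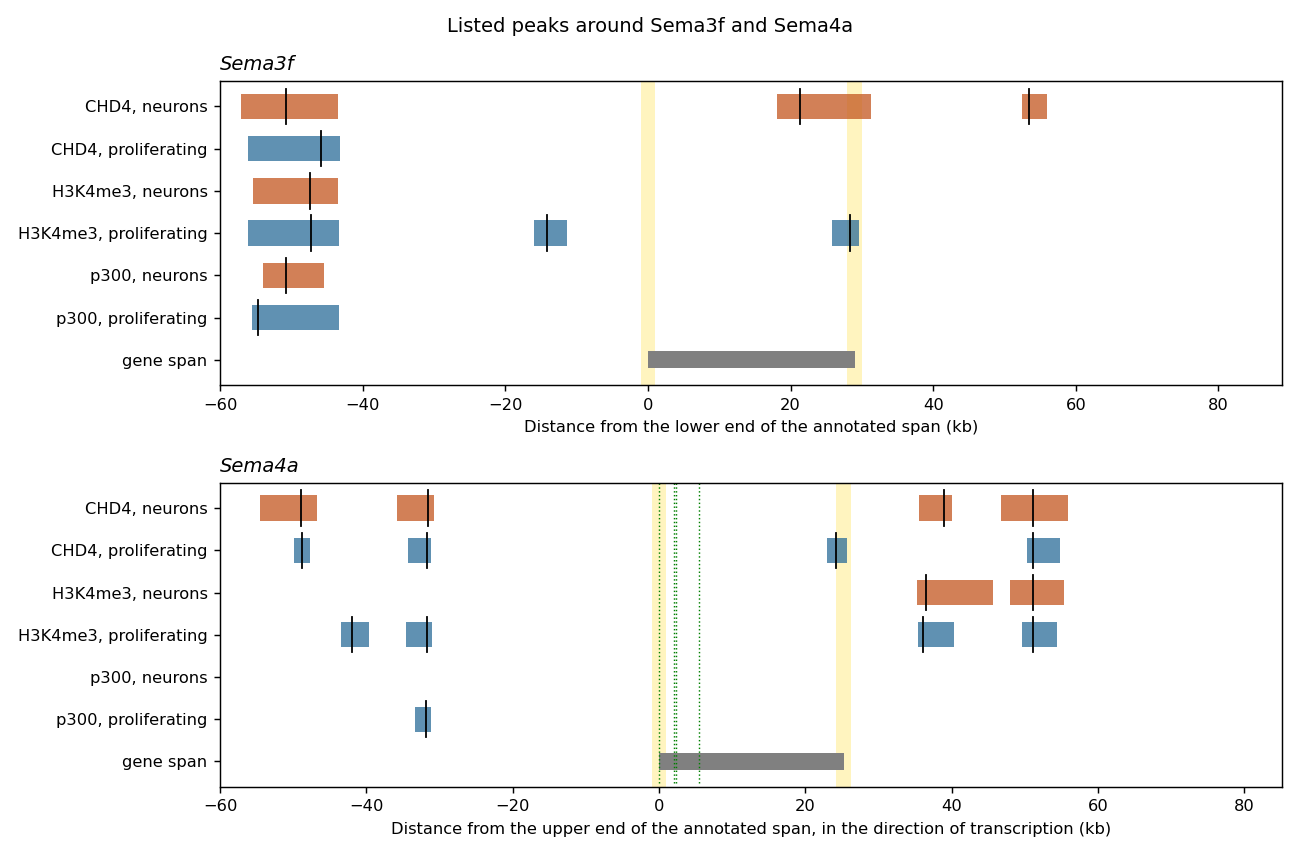
Peaks of the 6 lists around Sema3f (top, distance in kb from the lower end of its span) and Sema4a (bottom, distance in kb from the 5' end along the direction of transcription). Bars are listed peaks (neurons in orange above proliferating iMOPs in blue), black ticks their position of highest signal, dotted green lines RefSeq starts and yellow bands 1 kb either side of the gene ends. The neuron CHD4 bar of 13250 bp and the proliferating H3K4me3 bar of 3750 bp meet at the upper end of Sema3f, and no bar touches the 4 Sema4a starts.

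Of the other class 3 genes, Sema3a and Sema3e had CHD4 away from their ends, and neither other mark. Sema3a encodes a repellent that collapses growth cones. It had 1 CHD4 peak, inside the gene with its highest signal 73.8 kb downstream of the RefSeq start, in neurons only (chromosome 5, 13467601 to 13471450, 3850 bp, 59.3rd percentile). Sema3e is the ligand that binds Plxnd1 without a neuropilin. A CHD4 peak inside it was listed in both states, at 14038901 to 14041100 in neurons (2200 bp, 36.7th percentile) and 14038851 to 14040700 in proliferating iMOPs (1850 bp, 11.1st percentile), with the highest signal 14.0 and 15.0 kb downstream of its start. Another, 41.3 kb below the gene, was listed in proliferating iMOPs only (13981251 to 13984000, 25.0th percentile). Sema3c, which guides cardiac neural crest cells, had no peak.

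Sema4d and Sema4g had no CHD4 peak within their spans. Sema4d, the Plxnb1 ligand known in lymphocytes as CD100, had a single peak over its span, of H3K4me3 at the 5' end in proliferating iMOPs (chromosome 13, 51790601 to 51795000, 14.1st percentile), 36.5 kb upstream of the nearest RefSeq start. This H3K4me3 peak dropped out when the H3K4me3 lists were cut to equal size by total signal. The CHD4 peaks in the Sema4d flank, at the 87.6th percentile in neurons and the 89.4th in proliferating iMOPs, lay at Gadd45g, a growth arrest gene. The proliferating one begins 49.9 kb from Sema4d, just inside the limit of 50 kb, and the nearest CHD4 peak beyond that limit lay 53.5 kb from Sema4a in proliferating iMOPs. Sema4g is a ligand of Plxnb2. It had CHD4 in its flank at Lzts2 and Twnk in both states, 8.75 kb from the gene in neurons (8900 bp, 82.6th percentile) and 10.1 kb in proliferating iMOPs (4950 bp, 93.2nd percentile), with H3K4me3 in both states and p300 in neurons only (3.94th percentile). A further CHD4 peak in its flank, inside Pdzd7, was listed in proliferating iMOPs only at the 1.69th percentile.

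Counted over all 10 genes, 15 CHD4 peaks were listed in neurons and 19 in proliferating iMOPs, and 13 and 16 of these lay away from the gene ends. Some of these cover RefSeq starts: the peak over the Sema4c starts in both states and that over the inner Sema4b start in proliferating iMOPs. The share of peaks away from the ends over all genes was not taken, and bodies and flanks are much longer than the end windows. At least 1 such peak away from the ends was present at 8 of the 10 genes in neurons and 7 in proliferating iMOPs, against 25.3% and 28.8% of all genes. Any CHD4 peak in the span and 50 kb was listed for the same 8 and 7 genes, against 30.0% and 34.2% of all genes. The median was 1 peak per gene in neurons and 1.5 in proliferating iMOPs, against 0 over all genes in both states. Several of these spans are long, and neither length nor the number of neighbouring genes was matched. Sema3a, the longest (478.7 kb), had 1 CHD4 peak in neurons and 0 in proliferating iMOPs, and Sema4c, the shortest (12.1 kb), had 2 and 6. The part of length was not tested. Of the flank peaks, 6 of 10 in neurons and 7 of 13 in proliferating iMOPs lay within 1 kb of an end of another protein-coding gene. The counts of peaks listed in 1 state only were close to the background: 4 of 15 in neurons, where the share over the whole list was 32.6%, and 6 of 19 in proliferating iMOPs, where it was 33.8%.

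H3K4me3 overlapped 7 of the 15 CHD4 peaks in neurons (26.8% over the whole list) and 10 of the 19 in proliferating iMOPs (42.2%). For p300 the counts were 5 (20.0%) and 10 (58.1%), and 6 peaks overlapped neither in each state (56.4% and 26.3%). Of the p300 peaks near the 10 genes, all 5 in neurons and 10 of 11 in proliferating iMOPs overlapped CHD4, which was the norm, since 99.7% and 91.9% of all p300 peaks did so. Of the H3K4me3 peaks, 0 of 10 were listed in neurons only (1.90% over the whole list) and 8 of 18 in proliferating iMOPs only (26.0%). Of the p300 peaks, 1 of 5 was listed in neurons only (24.4%) and 7 of 11 in proliferating iMOPs only (76.5%). The neuron p300 list was much shorter than the proliferating one, and its part in these counts was not tested.

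Where CHD4 peaks of the 2 states overlapped, the neuron peak was the wider in nearly all pairs. Of 13 pairs of overlapping CHD4 peaks, the neuron peak was the wider in 12, as it was in 81.8% of 3268 pairs over the whole lists. The 13 pairs are not separate sites. They hold 11 neuron peaks, since those of 10700 bp at Sema4b and 8200 bp at Sema4c each enter more than 1 pair. The ratio of widths, neurons over proliferating iMOPs, had a median of 1.65 near the 10 genes and 1.40 over all pairs, and ran from 0.986 to 5.49. The exception was the pair with its highest signal between the Sema4b starts (10700 bp in neurons, 10850 bp in proliferating iMOPs). The ratio of 5.49 belongs to the narrow proliferating peak at the outer Sema4b start, which the wide neuron peak covers together with part of its neighbour. One of the pairs, of the neuron peak over the Sema4c starts (8200 bp) with the proliferating peak at its 3' end (5750 bp), shares only 100 bp. The ratio at the Sema4c site 22.1 kb upstream was 3.41, and that at the Lmna end in the Sema4a flank 3.57. For H3K4me3 the neuron peak was the wider in 7 of 10 pairs (60.9% of all pairs), and for p300 in 2 of 4 (51.7%). The 50-bp position of highest signal was the same in both states for 5 of the 13 CHD4 pairs, 5 of the 10 H3K4me3 pairs and 2 of the 4 p300 pairs, against 40.1%, 39.8% and 40.6% of all pairs.

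**Figure D4:**
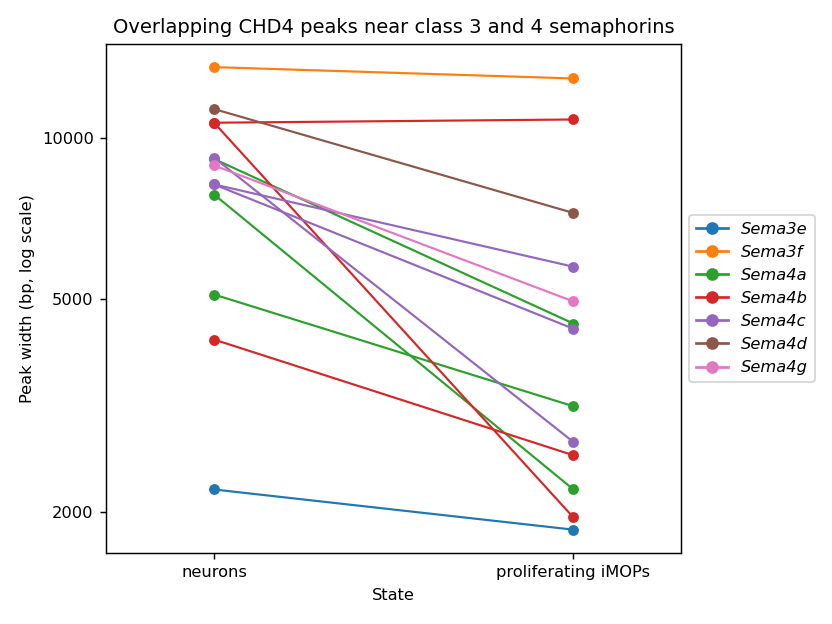
Width in bp (log scale) of each of the 13 pairs of overlapping CHD4 peaks near the genes, in neurons (left) and proliferating iMOPs (right), with 1 line per pair and colours by gene. The lines fall to the right for 12 of the 13 pairs, and the nearly level red line is the pair with its highest signal between the Sema4b starts.

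The stretches upstream of the starts differed in base composition. The 4 starts with CHD4 within 1 kb in proliferating iMOPs, at Sema4b and Sema4c, had 64.4% to 72.4% G and C and a ratio of observed to expected CpG of 0.611 to 0.815. The 12 starts without it, at 7 genes, ran from 40.8% to 78.4% and from 0.0603 to 1.02. The medians over 21255 starts of protein-coding genes were 55.6% and 0.530. All 3 Sema4d starts lay below both medians, as did those of Sema3a, Sema3e and Sema4f. Composition did not separate the groups fully. Sema3c, with 78.4% G and C, 39 CpG and no peak, had the highest values of all 16 starts, and Sema4g, with 73.2%, a ratio of 0.730 and no peak at its start, was close to the starts with CHD4. A GC box match, found upstream of 42.6% of all starts, was present at all 4 starts with CHD4 and at 7 of the 12 without. The E-box CACGTG matched at the inner Sema4b start (6.63% of all starts) and the AP-1 motif TGANTCA at the outer Sema4c start and at 1 Sema4d start (6.14%). The box CCAAT matched at 1 Sema4a, 2 Sema4d and the Sema4f starts (35.4%), and TATAAA at none (11.6%). Both strands were searched, and a match says only that these letters are present.

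**Figure D5:**
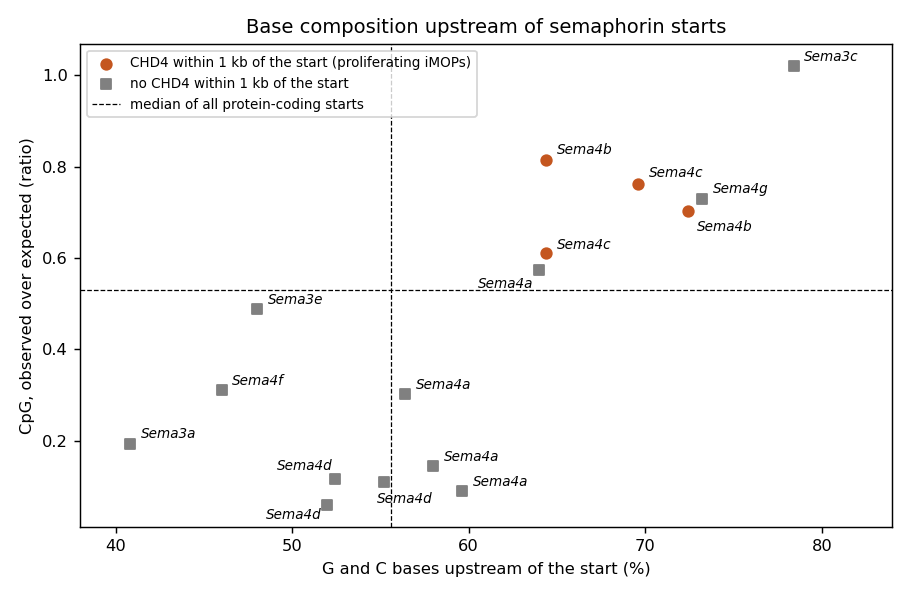
Share of G and C bases (x axis, %) against the ratio of observed to expected CpG (y axis) in the 250 bases upstream of each of the 16 RefSeq starts of 9 genes. Orange circles are starts with CHD4 within 1 kb in proliferating iMOPs, grey squares starts without, and dashed lines the medians over all protein-coding starts (55.6% and 0.530). The 4 circles lie above both medians, as do the squares of Sema3c, Sema4g and 1 Sema4a start.

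The receptors of these ligands carried CHD4 at gene ends at 7 of 11 plexin and neuropilin genes in neurons and 5 in proliferating iMOPs, where the shares over all protein-coding genes were 9.95% and 11.8%. Plxna1, Plxna2, Plxnc1, Nrp1 and Nrp2 had it in both states (7.49% of all genes), and Plxnb2 and Plxnd1 in neurons only (2.45%). Among the 11, the receptors named above for Sema3f, Sema3e, Sema4c, Sema4d and Sema4g can be set beside their ligands. Nrp2, the receptor of Sema3f, had CHD4 in both states (7250 bp at the 69.5th percentile in neurons, 8300 bp at the 81.2nd in proliferating iMOPs), whereas Sema3f had it at an end in neurons only. Plxnd1, the receptor of Sema3e, had CHD4 at an end in neurons only (7050 bp, 73.3rd percentile), and Sema3e at neither end in either state. Plxnb2, the receptor of Sema4c and Sema4g, had CHD4 at an end in neurons only (14100 bp, 85.4th percentile). By the same rule of annotated ends, Sema4c had CHD4 in proliferating iMOPs only, at its 3' end. Counted at RefSeq starts instead, Sema4c had CHD4 in both states. Sema4g had none in its span. Plxnb1, the receptor of Sema4d, had no CHD4 at an end in either state, and neither had Sema4d. H3K4me3 lay at an end of 8 of the 11 receptor genes in each state (30.0% of all genes in neurons, 37.6% in proliferating iMOPs), and p300 at 0 in neurons (1.24%) and 1 in proliferating iMOPs (Plxnc1, 8.44%).

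The counts of CHD4 at gene ends in the remaining lists stand against the same 9.95% of all genes in neurons and 11.8% in proliferating iMOPs. The remaining class 3 genes Sema3b, Sema3d and Sema3g had no peak of any list at an end. Of 7 semaphorins of classes 5, 6 and 7, 4 carried CHD4 at an end in each state, with Sema6a, Sema6b and Sema6c in both, Sema7a in neurons only and Sema5b in proliferating iMOPs only. The co-receptor genes L1cam, Nrcam, Chl1, Met and Erbb2 had none (0 of 5 in each state). Of 21 genes of intracellular effectors, 6 carried CHD4 at an end in neurons and 7 in proliferating iMOPs. Found in both were Dpysl5, of the collapsin response mediator family, the kinase gene Cdk5, Mical2, an oxidase that disassembles actin, the small GTPase gene Rras, the kinase gene Limk1 and its substrate gene Cfl1, the actin-severing cofilin. Gsk3b, a kinase gene, was listed in proliferating iMOPs only (4200 bp, 96.3rd percentile). The Cfl1 peak was 6300 bp wide in neurons (82.3rd percentile) and 5800 bp in proliferating iMOPs (90.7th percentile). Differences between these groups of genes were not tested.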

How the data were processed

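CUT&Tag peak lists for CHD4, H3K4me3 and p300 from neurons and proliferating iMOPs were used, 1 list per antibody and state and 6 in all. Bowtie2, deepTools, SEACR and mm10 are named per the submitters' processing notes; versions, settings and any use of IgG in peak calling are not given in the sources used here. Signal values (total and highest per peak) are as the authors deposited them, in the column layout of SEACR. Their scaling is unknown, so they were used only to rank peaks within a list (the percentile is the share of the list at or below a peak). Depth is unknown. Total signal grows with width. Positions run in 50-bp steps, with rare exceptions, and are counted from 1.

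Peaks sharing at least 1 bp with a member's span or the 50 kb either side were taken, and divided into gene end (1 kb either side of an annotated end), gene body and flank. A peak near an end counts only as gene end. Gene spans, starts, strands and sequences came from RefSeq tables of GRCm38.p6, and motifs were searched in the 250 bases before each start. The members, gene lists and named genes were chosen with earlier results of these data known: all 10 members, pathway genes with CHD4 at an end, neighbours with an end or a start at a flank peak, and starts of members with CHD4 at an end. Python 3.11.15, numpy 2.4.6, pandas 2.3.3 and matplotlib 3.10.9 were used, and the sorting of peaks into classes was tested on simulated data. Alternatives were windows of 500 bp and 2.5 kb, flanks of 20 and 100 kb, the stronger 50% of each list, lists of equal size, RefSeq starts only, other overlap rules and other ranks.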

Additional observations from a re-analysis of the deposited data

How the results depend on the processing

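No paired analysis was possible because each antibody and state has 1 peak list. The counts of genes with CHD4 at an end (2 in neurons, 3 in proliferating iMOPs) stayed within 1.5 times under every alternative run, except with the stronger 50% of each list, where the proliferating count was 1. A similar count did not always mean the same genes. With RefSeq starts only, the genes were Sema4b and Sema4c in both states, and Sema3f could not be counted. For H3K4me3 in neurons the count of 1 became 0 with the 500 bp window, since the peak at Sema4c lies 999 bp from the gene end, 2 with the 2.5 kb window and 2 with RefSeq starts only, and in proliferating iMOPs the count of 4 became 2 with the stronger 50%, 2 with lists of equal size and 2 with RefSeq starts only. The genes lost from that proliferating H3K4me3 count were Sema3f and Sema4d each time. With RefSeq starts only, the loss of Sema3f was fixed in advance, since it has no listed start. The p300 count was 0 in neurons under all alternatives. In proliferating iMOPs the p300 count of 1 (Sema4b) became 2 with the 2.5 kb window, 0 with the stronger 50%, 0 with lists of equal size and 2 with RefSeq starts only. CHD4 peaks in gene bodies and flanks numbered 6 in neurons and 6 in proliferating iMOPs with the 20 kb flank, by construction, and 7 and 8 with the stronger 50%. CHD4 peaks listed in neurons only numbered 7 when at least 50% of a peak had to be covered and 2 with the stronger 50%; those listed in proliferating iMOPs only numbered 1 with the stronger 50% and 3 with lists of equal size. The median percentile of the CHD4 peaks was 60.6 in neurons and 40.8 in proliferating iMOPs by total signal, 37.6 and 56.2 by highest signal, and 43.2 and 48.1 by signal per base, so the order of the states turned round with the ranking and is not reported as a result. The cause was not tested.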
